A study of Mus musculus with 8 samples.

Results

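The genes that drive DNA replication and cell division were examined in macrophages sorted from mouse breast tumours. The set holds 39 listed genes, and 38 of them were read by at least 1 probe named through its RefSeq accession. The brightest probe stood for each gene. All 38 were well above background on all 8 arrays and were tested, among 20879 genes in all, while Ccnd1 was not analysed here. By role the set holds 3 regulators of G1 and S phase, 9 origin licensing genes, 4 DNA synthesis genes, 8 mitotic cyclins, kinases and their regulator, 4 genes of the spindle checkpoint and mitotic exit, and 10 chromosome and spindle proteins.

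The cells were tumour-associated macrophages, which settle within a growing tumour, sorted for CD45, a protein of all leukocytes, together with the macrophage surface protein that Adgre1 encodes. The tumours had grown for about 21 days from PyMT breast cancer cells implanted orthotopically, and PyMT stands for the polyoma middle T oncogene. Hosts were C57BL/6 mice, either wild type (WT) or ATF3 KO, without the stress-induced transcription factor ATF3. The labels name no age, treatment or tissue-specific driver of the deletion, and they state no ATF3 change in the implanted tumour cells. Each genotype had 4 samples, numbered 1 to 4, and the labels do not say whether they came from separate or pooled mice. The p-values therefore reflect the spread among these samples alone, which may be technical. Each sample had its own 1-colour array, with numbers 1 and 2 of both genotypes on 1 slide and numbers 3 and 4 on the other.

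A dividing cell passes through G1, copies its DNA in S phase and separates the copies in mitosis. E2F1 and the E-type cyclins start S phase, the MCM helicase is loaded on origins by CDC6 and CDT1, and cyclin A and cyclin B with CDK1 then drive mitosis until the anaphase-promoting complex ends it. Transcripts of these genes are scarce in resting macrophages and rise in cells that divide, so in tumours they are commonly read as marks of proliferation. In sorted bulk samples, fewer cells of a type and less RNA per cell cannot be told apart.

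Many of these genes share promoter elements, and 4 promoters are shown because their genes carry the main results or show each element. Each line gives the 250 bases before the transcription start, 5′ to 3′ on the strand of the gene, from RefSeq on GRCm38.p6. Capitals mark a CCAAT box, TTTGAA (the core of the cell cycle homology region, an element of genes expressed in G2 and mitosis) or an E2F site spelled TTTCCCGC, TTTCGCGC, TTTGCCGC or TTTGGCGC, each on either strand. Nusap1 lies at chr2:119618048-119618297 on the plus strand, Ccnb1 at chr13:100786487-100786736, Cdk1 at chr10:69352913-69353162 and Mcm6 at chr1:128359706-128359955, the last 3 on the minus strand.
Nusap1: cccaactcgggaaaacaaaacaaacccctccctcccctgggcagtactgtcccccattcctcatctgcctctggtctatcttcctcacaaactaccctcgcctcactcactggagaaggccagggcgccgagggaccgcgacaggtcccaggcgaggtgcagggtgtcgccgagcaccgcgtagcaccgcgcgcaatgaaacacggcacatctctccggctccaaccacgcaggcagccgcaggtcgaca
Ccnb1: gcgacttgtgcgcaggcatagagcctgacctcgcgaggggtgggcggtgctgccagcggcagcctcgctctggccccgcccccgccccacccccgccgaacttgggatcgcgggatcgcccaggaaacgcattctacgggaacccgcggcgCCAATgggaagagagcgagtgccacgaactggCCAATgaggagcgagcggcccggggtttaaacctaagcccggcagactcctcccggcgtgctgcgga
Cdk1: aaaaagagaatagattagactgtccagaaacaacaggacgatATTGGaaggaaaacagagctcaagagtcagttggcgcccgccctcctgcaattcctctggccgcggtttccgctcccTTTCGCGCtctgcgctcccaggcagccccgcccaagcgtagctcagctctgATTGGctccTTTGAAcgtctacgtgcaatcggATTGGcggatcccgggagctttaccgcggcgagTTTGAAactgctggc
Mcm6: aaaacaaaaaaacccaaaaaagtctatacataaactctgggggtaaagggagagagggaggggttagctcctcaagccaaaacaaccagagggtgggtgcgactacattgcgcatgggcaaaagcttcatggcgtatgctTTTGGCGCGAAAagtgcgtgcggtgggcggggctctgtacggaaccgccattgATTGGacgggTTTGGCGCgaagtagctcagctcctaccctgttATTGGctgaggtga
The Ccnb1 window held 2 CCAAT boxes, starting at −99 and −67 from the transcription start. The Cdk1 window held all 3 elements, and the Mcm6 window held 2 CCAAT boxes and 3 E2F matches, of which the matches starting at −110 and −106 overlap. The Nusap1 window held no match to these letters.

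Across the set, 30 members matched 31 promoters of the 32851 in the RefSeq table. Aurkb, Ccna2, Ccnd1, Ccne2, Foxm1, Gmnn, Kif20a, Mcm4 and Tpx2 had no entry. A CCAAT box was present in 24 of the 31 (77.4%), against 33.8% of all promoters. In the mitotic role groups 15 of 17 held it (88.2%), and in the G1, licensing and DNA synthesis groups 9 of 14 (64.3%). TTTGAA was found in 7 of 17 mitotic promoters (41.2%) and 1 of 14 of the earlier groups (7.14%), against 16% of all promoters. E2F letters showed the opposite arrangement, with 4 of 14 in the earlier groups (Cdc6, Mcm5, Mcm6 and Mcm7, 28.6%) and 1 of 17 in the mitotic groups (Cdk1, 5.88%), against 1.86% of all promoters. These are matches of letters and not measured binding.

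**Figure D1:**
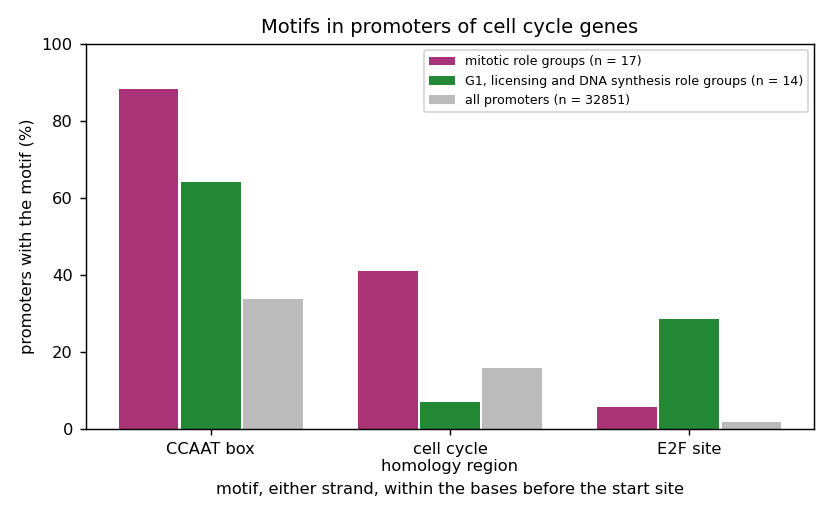
Share of promoters, in percent, that hold each element on either strand in the 250 bases before the start, for the mitotic role groups (17 promoters), the earlier role groups (14 promoters) and all 32851 promoters. CCAAT boxes are in 88.2% and 64.3% of the member promoters against 33.8% of all, TTTGAA is mostly in the mitotic groups and E2F letters mostly in the earlier groups.

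Values below are relative log2 signals, the log2 of the processed intensity minus the log2 of that array's 75th percentile. They compare samples for the same gene and do not rank genes, and each run of 4 values follows the sample numbers 1 to 4. The 75th percentile lay between 619 and 926 intensity units, the share of spots well above background between 63.7% and 68.0%, and 0 spots were saturated. The dimmest arrays were those of WT sample 1 (619) and KO sample 1 (638). Their 75th percentile was 20.6 times the median background in both, against 21.3 to 31.9 on the other arrays. The part of this in the values of number 1 below was not tested. The number of arrays limits the precision. Atf3, the gene deleted in the KO hosts, measured 4.92, 4.99, 4.79 and 4.51 in the WT samples and 5.51, 4.86, 4.96 and 4.88 in the KO samples, and the ranges overlapped. The difference was 0.25 (two-sided exact permutation p = 0.314). The sources used here do not place its probe against the deleted part, so it checks no label, and directions below refer to the samples as labelled. The sort gene Adgre1 measured 3.33 to 4.71 in the WT samples and 3.47 to 4.68 in the KO samples.

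The first question was whether the cell cycle genes differ between macrophages of WT and ATF3 KO hosts. No member was called. With limma, 0 of 38 had an adjusted p under 0.05, against 0 of 20879 over all genes (0%), and every member had an adjusted p of 1.00. Unadjusted p-values under 0.05 were found for 0 of 38 members, against 696 genes (3.33%). The samples of the genotypes overlapped for all 38, while they did not overlap for 442 genes (2.12%). Lower means in the samples labelled KO were found for 21 members (55.3%), against 51.4% of all genes. The log2 differences ran from −0.32 for Aurka to 0.49 for Ccne1 with a median of −0.0235, and the median over all genes was −0.0086.

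The intervals here are from the fit with genotype alone, which leaves the spread between replicate numbers in the error. They bound what that fit could show, and no interval is given for the fit with the numbers as a block. The median 95% interval of a member's log2 difference reached 0.773 to either side, against 0.746 over all genes. The intervals of 27 of 38 members (71.1%) lay within a 2-fold change either way, against 51.3% of all genes. The widest was that of Cdc6, which loads the helicase on origins, from −1.27 to 1.17, and the narrowest that of Mcm4, a helicase subunit, from −0.42 to 0.32. The balance of directions turned with single samples. Without KO sample 1 there were 6 members lower in the samples labelled KO and a median of 0.160. Without WT sample 1 there were 30 and −0.150, and without WT sample 3 there were 10 and 0.102. Over all genes 53.7%, 50.2% and 49.9% were lower in these fits, in the same order.

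**Figure D2:**
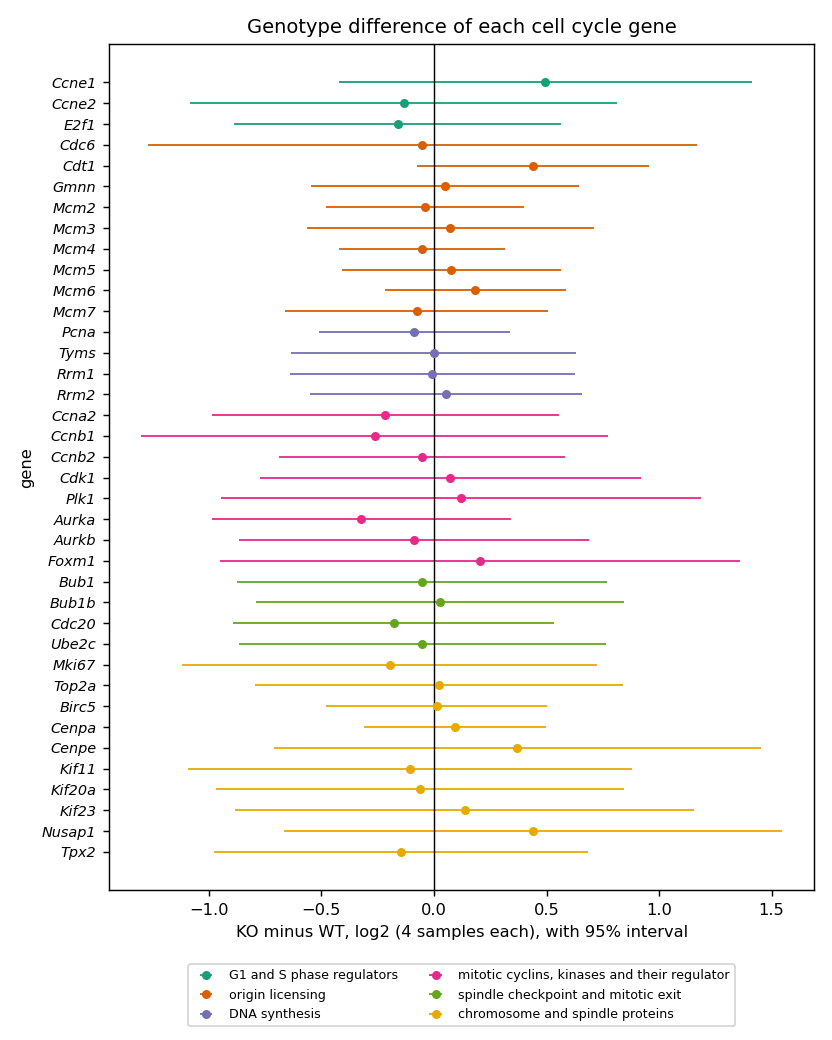
Difference in relative log2 signal, KO minus WT (4 samples each), for each of the 38 members, coloured by role group. Lines are 95% intervals of the limma fit with genotype alone, without the replicate block. All 38 of these intervals cross 0, and the points run from −0.32 for Aurka to 0.49 for Ccne1.

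Among the G1 and S phase regulators, Ccne1 and E2f1 are given for genotype and Ccne2 for replicate number. Ccne1 encodes cyclin E1, which activates CDK2 at the start of S phase. It measured −1.77, −2.21, −0.89 and −1.90 in the WT samples and −2.14, −0.70, −0.97 and −0.99 in the KO samples. WT sample 3 lay among the 3 highest KO samples and KO sample 1 among the low WT samples. The difference was 0.49 (standard error 0.40); it was 0.32 without WT sample 2, 0.81 without KO sample 1, and −0.022 by the other Ccne1 probe. E2f1, the activator of S phase genes, measured 0.81, 0.93, 1.35 and 1.01 in the WT samples and 0.00, 1.37, 1.19 and 0.88 in the KO samples. KO sample 1 was the lowest of the 8, and the difference of −0.16 (95% interval −0.89 to 0.57) became 0.12 without it. Ccne2, encoding cyclin E2, measured −0.81, −0.51, 0.15 and 0.61 in the WT samples and −0.02, −1.18, −0.10 and 0.21 in the KO samples, and the lowest sample was KO sample 2.

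Of the 9 origin licensing genes, 5 had a higher and 4 a lower mean in the samples labelled KO. Cdt1, which brings the MCM helicase to origins, measured 0.13, 0.32, 0.61 and −0.25 in the WT samples and 0.83, 0.63, 0.73 and 0.37 in the KO samples. The KO sample was the higher in each of the 4 numbers, but WT sample 3 lay above KO sample 4. The means were 0.20 ± 0.36 and 0.64 ± 0.20 (SD, n = 4 each), a difference of 0.44 (standard error 0.22, limma adjusted p = 1.00), and 0.29 without WT sample 4. Mcm6, a subunit of that helicase, measured 1.90, 1.68, 2.11 and 1.86 in the WT samples and 1.80, 2.21, 2.13 and 2.15 in the KO samples, a difference of 0.18 (95% interval −0.22 to 0.58) that was 0.11 without WT sample 2. Gmnn encodes geminin, the inhibitor of CDT1. It measured 0.38, 0.74, 1.20 and 0.20 in the WT samples and 0.40, 0.68, 0.99 and 0.65 in the KO samples, with number 3 the highest in both genotypes. Mcm3 measured 0.92, 1.20, 1.48 and 0.61 in the WT samples and 0.66, 1.43, 1.50 and 0.91 in the KO samples, again highest in number 3. The other members of the group, Cdc6, Mcm2, Mcm4, Mcm5 and Mcm7, had differences between −0.0773 and 0.0777.

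The 4 DNA synthesis genes lay closest together between the genotypes, with differences from −0.0866 to 0.0530. Pcna, the sliding clamp of the replication fork, measured 4.35, 4.32, 4.32 and 3.84 in the WT samples and 4.15, 4.03, 4.32 and 3.97 in the KO samples. WT sample 4 lay below the rest of its group, and the difference was −0.0866 (95% interval −0.51 to 0.34), or −0.21 without that sample. Rrm2, the regulated subunit of ribonucleotide reductase, measured 1.72, 2.62, 2.44 and 2.52 in the WT samples and 1.94, 2.63, 2.41 and 2.54 in the KO samples. Both samples numbered 1 were lowest, and the other 6 spanned 2.41 to 2.63. Tyms, which makes thymidylate, measured 1.32, 2.15, 2.11 and 1.68 in the WT samples and 1.24, 2.01, 2.05 and 1.94 in the KO samples. Rrm1, the other subunit of the reductase, measured 0.33, 0.98, 0.97 and 0.49 in the WT samples and 0.04, 0.89, 0.95 and 0.87 in the KO samples. In both genes the samples numbered 1 were the lowest of the 8 and the genotype difference was under 0.01 in size.

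Among the mitotic cyclins and kinases, 5 of 8 had a lower and 3 a higher mean in the samples labelled KO. Ccna2 encodes cyclin A2, which acts in S phase and at the entry into mitosis. It measured 1.47, 2.48, 2.70 and 2.15 in the WT samples and 1.34, 2.18, 2.35 and 2.08 in the KO samples. The KO sample was the lower in each number, and the spread across numbers was wider than the genotype difference of −0.22 (standard error 0.33), which was −0.46 without WT sample 1 and −0.0010 without KO sample 1. Ccnb1 encodes cyclin B1, the partner of CDK1 in mitosis. It measured −0.55, 0.62, 0.94 and 0.79 in the WT samples and −0.77, 0.09, 0.63 and 0.79 in the KO samples, with both samples numbered 1 far below the rest and a genotype difference of −0.26 (95% interval −1.30 to 0.77). Aurka, a kinase of the spindle poles, measured −0.32, 0.47, 0.23 and −0.19 in the WT samples and −0.65, −0.57, 0.35 and −0.22 in the KO samples. The difference was −0.32 with a standard error of 0.29, and −0.18 without WT sample 2 and −0.53 without KO sample 3. Aurkb, the kinase of the chromosomal passenger complex, measured −1.76, −0.80, −0.34 and −0.74 in the WT samples and −1.42, −1.04, −0.54 and −0.99 in the KO samples, lowest in number 1 and highest in number 3 for both genotypes. For Cdk1, Plk1, Ccnb2 and Foxm1, the regulator of mitotic gene expression, the differences lay between −0.0535 and 0.203.

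The spindle checkpoint and mitotic exit genes gave differences from −0.18 to 0.0269. Cdc20, the activator of the anaphase-promoting complex, measured −0.08, −0.33, −0.01 and 0.30 in the WT samples and −1.03, 0.14, −0.20 and 0.26 in the KO samples. KO sample 1 was the lowest, and the difference of −0.18 became 0.094 without it. Ube2c, the ubiquitin-conjugating enzyme of that complex, measured 2.06, 2.79, 3.15 and 2.91 in the WT samples and 1.82, 3.09, 2.97 and 2.80 in the KO samples, lowest in number 1. Bub1, a kinase of the spindle checkpoint, measured −1.39, −0.66, −0.10 and −1.16 in the WT samples and −1.26, −1.004, −0.16 and −1.10 in the KO samples. Bub1b, which encodes the checkpoint protein BUBR1, measured −1.51, −0.22, −0.12 and −0.40 in the WT samples and −0.85, −0.13, −0.27 and −0.88 in the KO samples. Bub1 had its highest samples in number 3 in both genotypes, and Bub1b its lowest WT sample in number 1.

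Among the 10 chromosome and spindle proteins, 6 had a higher and 4 a lower mean in the samples labelled KO. Nusap1 encodes a protein that bundles spindle microtubules near the chromosomes. It measured 0.24, 1.91, 2.10 and 1.58 in the WT samples and 0.99, 2.32, 2.34 and 1.94 in the KO samples. The KO sample was the higher in each number, yet the groups overlapped. The samples numbered 1 lay well below the others, and among the other numbers WT sample 3 lay above KO sample 4. The difference was 0.44 (standard error 0.48, limma adjusted p = 1.00), and it was 0.036 without WT sample 1 and 0.743 without KO sample 1. Cenpe, a kinetochore motor, measured −0.68, −0.55, 1.02 and −0.67 in the WT samples and 0.20, 0.53, 0.59 and −0.72 in the KO samples, with WT sample 3 far above the other WT samples. The Cenpe difference of 0.37 was 0.216 without WT sample 1 and 0.783 without WT sample 3. Kif11, the motor that separates spindle poles, measured −1.33, −0.50, −0.14 and −1.14 in the WT samples and −1.88, −0.38, −0.26 and −1.02 in the KO samples. Kif23, a motor of the central spindle, measured −1.48, −0.24, 0.44 and −0.81 in the WT samples and −1.05, −0.17, 0.13 and −0.45 in the KO samples. Both motors were lowest in number 1 and highest in number 3 in each genotype. For the proliferation marker Mki67 and for Top2a, which encodes topoisomerase II alpha, Birc5, Cenpa, Kif20a and Tpx2 the differences lay between −0.20 and 0.0932.

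**Figure D3:**
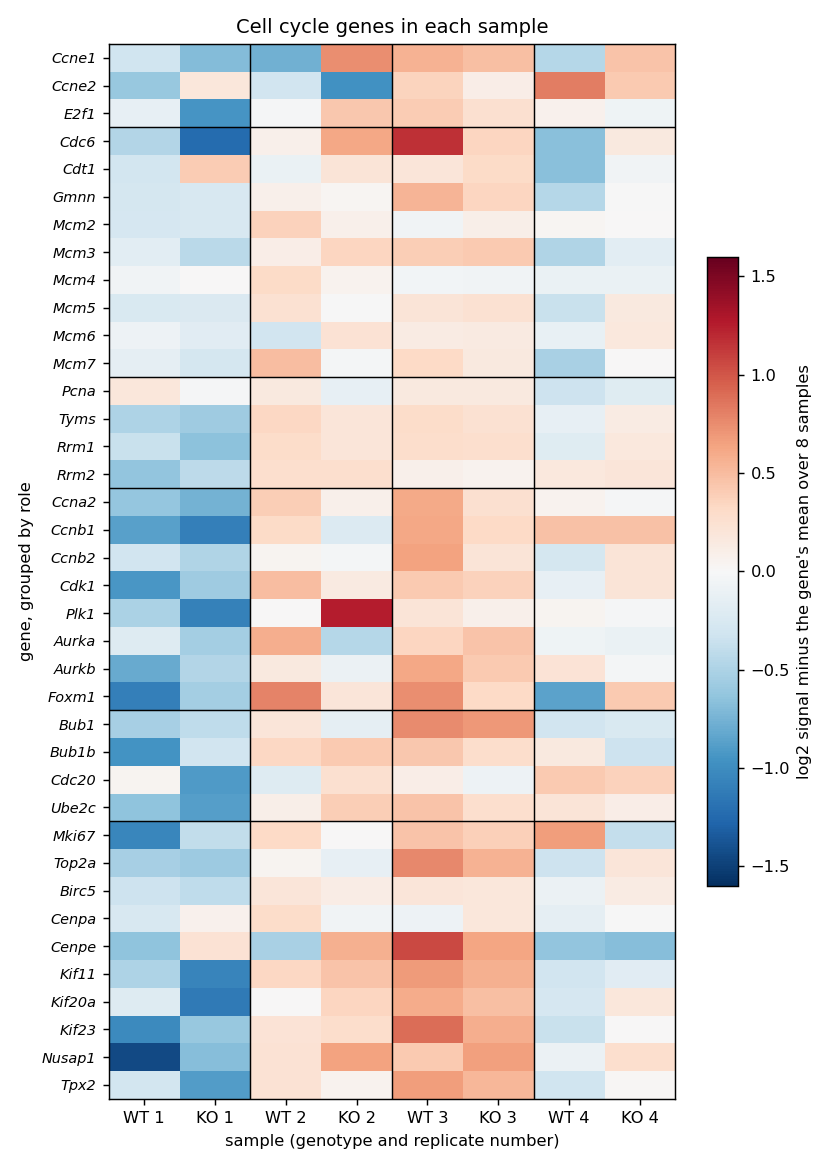
Relative log2 signal of each member minus its mean over the 8 samples (colour), with genes grouped by role in rows and samples ordered by replicate number in columns. The columns of WT 1 and KO 1 are mostly blue and those of WT 3 and KO 3 mostly red, while no block of genes separates the genotypes.

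Samples of the same number deviated together across genes, though only weakly for number 2. Its correlation of 0.136 was below that of WT sample 2 with KO sample 4 (0.151). The genotypes were also compared within replicate numbers, taken as a block. This gave 0 adjusted calls over all genes (0%) and 0 among the members. At an unadjusted p under 0.05 the block gave 1576 genes (7.55%) and 2 of 38 members (5.26%), Cdt1 and Nusap1, whose limma adjusted p-values were 0.649 and 0.637. The KO sample lay on the same side of the WT sample in all 4 numbers for 4 members (10.5%), against 17.1% of all genes. These were Ccna2 and Ccnb1, lower, and Cdt1 and Nusap1, higher. The median member difference within numbers 1 to 4 was −0.0758, −0.0879, −0.114 and 0.185.

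The members varied more between replicate numbers than between genotypes. The number took a median of 77.1% of a member's sum of squares over the 8 samples and genotype 1.42%, against 66.3% and 4.94% over all genes. By degrees of freedom alone the number would take 42.9% and genotype 14.3%. In the F test of the number with genotype in the limma fit, 2 of 38 members were called (5.26%), against 1502 genes (7.19%). They were Nusap1 (adjusted p = 0.0398) and Ccnb1 (adjusted p = 0.0443). At an unadjusted p under 0.05 there were 14 members (36.8%), against 6149 genes (29.5%). The calls were not stable: leaving out any of the 8 samples gave 0 member calls, and over all genes 652 without WT sample 2, 646 without KO sample 2 and 0 without any of the other 6. The number cannot be told apart from whatever the same-numbered samples share, which the labels do not say. Samples of a number also share a slide. The slide took a median of 18.1% of a member's sum of squares, against 9.04% over all genes. By degrees of freedom alone it would take 14.3%, as genotype would. This share is part of that of the number and does not add to it. The slide took 58.6% for Ccnb1 and 21.2% for Nusap1.

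The members moved across the numbers in a common order. Number 1 had the lowest mean for 31 of 38 members (81.6%), against 17.9% of all genes, and number 3 the highest for 29 (76.3%), against 32.5%. Both samples numbered 1 were the lowest 2 of the 8 for 19 members (50%), against 4.54% of all genes. Number 1 was singled out after its values were seen, so these counts are a description with no test. The mean of number 1 minus the mean of the other numbers was negative for 36 of 38 members, with a median of −0.686, while over all genes it was negative for 44.3% with a median of 0.0579. It ran from −1.41 for Nusap1 and −1.31 for Ccnb1 to 0.115 for Pcna, and the other positive value was 0.08, for Cdt1. With other processing and with each sample left out, number 1 had the lowest mean for 27 to 34 members, the fewest without KO sample 4. The share of all genes was 15.9% to 22.3% in these settings. The deposited table gave 34 of 37 members.

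The order was shared by both genotypes. The median member deviation from the gene's mean was −0.413, 0.206, 0.422 and −0.141 in the WT samples and −0.511, 0.170, 0.293 and 0.0129 in the KO samples. KO sample 1 was the lowest of the 8 samples for 16 of the 38 members and WT sample 1 for 11, against 7.25% and 10.7% of all genes. WT sample 3 was the highest for 16 and WT sample 2 for 10, against 12.9% and 11.3% of all genes. KO sample 3 was the highest of the 8 for only 2 members and KO sample 2 for 5, against 12% and 8.07% of all genes. By role, the median deviation in number 1 was −0.719 in the mitotic cyclins and kinases, −0.633 in the chromosome and spindle proteins, −0.549 in the checkpoint and exit genes, −0.514 in the DNA synthesis genes, −0.506 in the G1 and S phase regulators and −0.242 in the licensing genes. Number 1 had the lowest mean for 8 of 8 mitotic cyclins and kinases, 4 of 4 checkpoint and exit genes and 9 of 10 chromosome and spindle proteins. It also did for 3 of 4 DNA synthesis genes, 2 of 3 G1 and S phase regulators and 5 of 9 licensing genes, against 17.9% of all genes. Whether the groups differ in this was not tested.

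**Figure D4:**
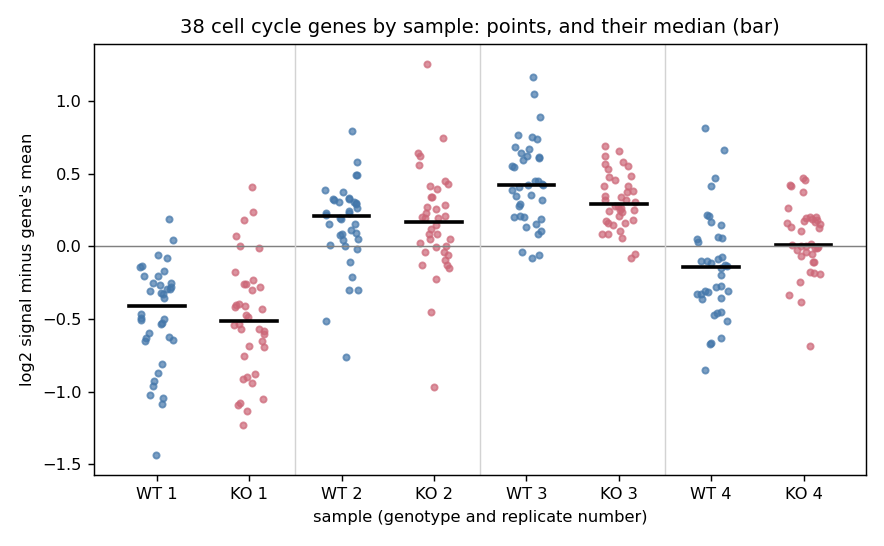
Relative log2 signal minus the gene's mean over the 8 samples for the 38 members (points) and their median (bar), by sample, WT in blue and KO in red. The medians are lowest in WT 1 (−0.413) and KO 1 (−0.511) and highest in WT 3 (0.422) and KO 3 (0.293).

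Nusap1 averaged 0.62, 2.11, 2.22 and 1.76 in numbers 1 to 4, and Ccnb1 averaged −0.66, 0.36, 0.78 and 0.79, so number 1 was the lowest for both while number 3 led for Nusap1 only. Ccna2 followed with 1.41, 2.33, 2.53 and 2.12 (limma adjusted p for the number = 0.061). Its value missed the threshold, as did those of Bub1 (0.0673), Kif23 (0.0685), Kif11 (0.0693) and Ube2c (0.0783). Among the licensing genes, Cdc6 averaged −3.76, −2.56, −2.16 and −3.17, lowest in number 1 and highest in number 3, and Mcm6 averaged 1.85, 1.94, 2.12 and 2.01. Pcna averaged 4.25, 4.18, 4.32 and 3.90, with number 4 the lowest.

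Further probes gave a check of the reading. Other probes were read if well above background on 4 or more of the 8 arrays. A further probe of Cdk1 (0 of 8) and a further probe of Cenpe (3 of 8) were left out. Of the 13 probes read, for 12 members, all 13 had the sign of the main probe for number 1 against the others. The genotype direction was the same for 8. Ccnb1 had 2 further probes, with −1.31 and −1.15 for number 1 against the others beside −1.31 for the main probe. Of the 13, 9 were well above background on all 8 arrays, and 6 of the 9 had the same genotype direction, the exceptions being those of Bub1, Ccne1 and Tyms. The other probes of Ccne2, Cdc6, Kif11 and Top2a were not above background on every array, and that of Top2a on only 4 of 8.

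Other cell cycle genes were read in the same fits. Of 123 tested outside the set, 0 were called for genotype, and Cdk2 had the smallest unadjusted p, with a difference of 0.54 (limma adjusted p = 1.00). Number 1 had the lowest mean for 42 of 50 further mitotic genes, 25 of 37 further replication genes, 10 of 18 cyclins, CDKs and E2F factors and 6 of 18 cell cycle inhibitors, against 17.9% of all genes. The replicate number was called for 5 of the 123 (4.07%) and for 3 of the 50 mitotic genes (6%), against 7.19% of all genes. The 3 were Anln, the contractile ring protein anillin (limma adjusted p = 0.0288), Cdc25c, a phosphatase that activates CDK1 (0.0418), and Pbk, a mitotic kinase (0.0422). Anln averaged −4.09, −2.76, −2.14 and −2.39 in numbers 1 to 4, low in number 1 like the members. The 2 inhibitors called, Cdkn2b and Cdkn2a, took another order, with −1.02, −0.00350, −2.37 and 0.838 for Cdkn2b, lowest in number 3 and highest in number 4.

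Markers of other cells also moved with the number. Neutrophil markers had 8 of 10 tested, and all 8 were highest in number 1. Their summed signal, in multiples of each array's 75th percentile, was 59.0 in WT sample 1 and 53.6 in KO sample 1, against 5.02 to 23.1 in the other 6 samples. Monocyte markers were highest in number 1 for 6 of 7, with sums of 117 and 133 in the samples numbered 1 and 32.9 to 72.2 elsewhere. Tumour epithelial markers (18 of 19 tested, 11 called by number) took another order, lowest in number 3 with sums of 29.5 and 32.4, then number 1 with 75.2 and 81.4, number 2 with 153 and 152 and number 4 with 209 and 214. Macrophage markers (14 of 15 tested) were all 14 above background on all 8 arrays. Their summed signal was highest in number 3, at 760 and 752, and lowest in number 4, at 421 and 411. By gene, 3 of the 14 were highest in number 1, namely Cd14, Csf1r and Fcgr1. On all 8 arrays 14 of the 18 epithelial and 7 of the 8 neutrophil genes tested were well above background, among them Epcam, Krt8, Krt18, S100a8 and S100a9. The exceptions were Elf3, Erbb3, Esrp1 and Wap, and the neutrophil gene Camp. In number 1, where the members were lowest, dendritic cell markers were also highest for 5 of 6. In number 3, where the members were highest, the epithelial (−1.65), neutrophil (−1.27), fibroblast (−1.17), NK cell (−0.88), endothelial (−0.81), T cell (−0.47) and erythroid (−1.82) lists had their lowest mean log2 deviation of the 4 numbers. The erythroid list held only 2 tested genes of 5 listed. In the erythroid, NK cell and endothelial lists 0 genes were called by number. On all 8 arrays 4 of 7 NK cell and 5 of 7 endothelial genes were well above background. Acta2 of the fibroblast list, Erbb3 of the epithelial list and Eomes of the NK cell list were instead highest in number 3. The macrophage list had its highest deviation in number 3 (0.55) and lay at 0.18 in number 1, where the members were lowest. The part of these cells in the members' order was not tested.

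**Figure D5:**
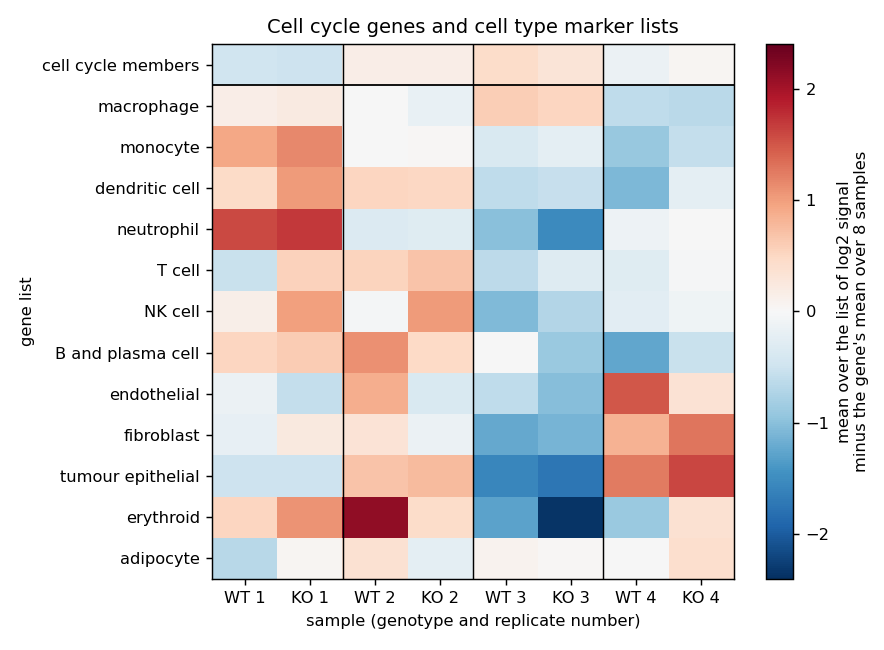
Mean over each gene list of the relative log2 signal minus the gene's mean over the 8 samples (colour), by sample in columns, for the 38 members in the top row and 12 marker lists below. Neutrophil and monocyte markers are highest in WT 1 and KO 1, where the members are lowest, and tumour epithelial markers are lowest in WT 3 and KO 3, where the members are highest.

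Without both samples numbered 1, a comparison chosen after the values were seen, the genotype fit again called 0 members and 0 genes, and 15 members had a lower mean in the samples labelled KO, with a median of 0.0326. The number fit on the remaining 6 samples called 672 genes (3.22%) and 0 members. At an unadjusted p under 0.05 there were 4 of 38 members (10.5%), against 5324 genes (25.5%).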

How the data were processed

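RNA of 8 samples was labelled with Cy3 and hybridised to Agilent arrays. The authors' deposited scanner files hold each spot's processed intensity, background-corrected by Feature Extraction 10.7.1.1 per the file headers (10.5 per the submitters' processing notes). The headers name mm9, and no coordinates were taken from them. A second deposited table gives the authors' own intensity values for these arrays, whose scale, centring and direction are not stated in the sources used here. The column medians were 92 to 94 and the deviations from the probe means correlated at 0.999 with quantile-normalized median signal over 26919 probes, so it was used as linear intensity, as an alternative.

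Control and outlier spots were dropped, log2 intensities averaged per probe, and each array's 75th percentile subtracted. A probe was kept if well above background on 4 or more of the 8 arrays (27165 probes), and each gene was read by its brightest kept probe. Probes were named through RefSeq accessions. Genotype, and replicate number with genotype, were tested two-sided in limma 3.58.1 (lmFit and eBayes, R 4.3.3), with p-values adjusted by Benjamini-Hochberg over all 20879 genes. The fits were tested on simulated data.

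The members and lists were chosen with earlier results of these data known. Values in every sample are given for up to 2 members per role group with the smallest p for genotype and up to 2 more for the number, and up to 6 other cell cycle genes per comparison may be named. Marker genes are named from their lists.

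The labels do not state what a replicate number shares. Over all genes, deviations of same-numbered WT and KO samples from their group means had correlations of 0.296, 0.136, 0.701 and 0.513 (numbers 1 to 4). All were over 0.1, so the numbers were treated as pairing the samples in the replicate block, an alternative fit. The main genotype fit, with its standard errors and intervals, did not pair them. WT sample 2 with KO sample 4 (0.151) and WT sample 4 with KO sample 2 (0.139) also passed 0.1.

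Alternatives were normexp background correction of the median signal (offset 50), quantile normalization, bright probes as scale, dim probes kept or filtered more strictly, the deposited table, trend and robust, the slide in a block or 1 slide at a time, the replicate block, other probes, and samples left out.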

Additional observations from a re-analysis of the deposited data

Results flagged for a closer look

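In 6 of 76 groups of 4 samples, taken over 38 members and 2 genotypes, 1 sample lay far from its nearest neighbour relative to the range of its group. Chance gives about 1 in 20 groups. KO sample 1 was low for 3 of them: Tyms at 1.24 with the next KO sample at 1.94, Rrm1 at 0.0384 with the next at 0.866, and Birc5, a passenger complex protein, at 4.98 with the next at 5.51. In the WT samples, Mcm4 was high in sample 2 at 6.22 with the next at 5.87, Cenpe was high in sample 3 at 1.02 with the next at −0.55, and Pcna was low in sample 4 at 3.84 with the next at 4.32.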

How the results depend on the processing

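No alternative gave a genotype call among the members, and over all genes the calls were 0 to 1, the 1 without KO sample 1. Members lower in the samples labelled KO numbered 6 to 30 with samples left out in turn, against 48.1% to 54.0% of all genes. They numbered 13 on slide 2 alone and 24 on slide 1 alone (50.6% and 52.7% of all genes), beside 21. There were 16 of 37 in the deposited table, where the median member difference turned to 0.0419 from −0.0235. With normexp the median of all genes shifted to −0.133, and 60.8% were lower. Some small differences changed sign. With normexp Pcna was 0.084 and Ube2c 0.081. On slide 1 alone Ube2c was 0.035, and on slide 2 alone Cenpe was −0.24, Pcna 0.070, Rrm2 −0.0040 and Aurka 0.039. The other Ccne1 probe gave −0.022. Without both samples numbered 1, Rrm2 was −0.00055, E2f1 0.053, Cdc20 0.078 and Ube2c 0.0079. With samples left out in turn, Rrm2 ran from −0.15 to 0.20, E2f1 from −0.33 to 0.12, Cdc20 from −0.33 to 0.094 and Ube2c from −0.28 to 0.23.

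The calls by replicate number, 1502 genes and 2 members, moved widely. Of 20879 genes and 38 members, 356 and 0 were called with normexp and 3972 and 11 with trend and robust. There were 2431 and 5 with no genotype term, and 1 and 0 with the slide in place of the number. With no filter the calls were 407 of 32665 genes and 0 of 38 members, and with a stricter filter 2700 of 17226 and 7 of 38. The deposited table gave 2188 genes of 20735 (10.6%) and 6 of 37 members (16.2%). The members' share was above that of all genes with the stricter filter, trend and robust, no genotype term and the deposited table. In the main fit it was below (5.26% against 7.19%). Without both samples numbered 1 there were 672 genes and 0 members, and with samples left out in turn 0 to 652 genes and 0 members. The cause was not tested, beyond the fewer samples or the other set of genes tested where a setting changes those.

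With the replicate block the genotype fit gave 0 calls, and 1576 genes at an unadjusted p under 0.05 against 696, and it changed no call of the members. The precision is limited by 4 arrays per group.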
